A study of Mus musculus with 16 samples.

Results

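The ribosomal protein genes of the cytosolic ribosome, with the paralogs that can stand in for some of them, were followed in mouse primordial germ cells (PGCs), the embryonic cells from which sperm and eggs descend. A gene counted as a member when its symbol had the form of a numbered Rpl or Rps gene, or was Rpsa, Rplp0, Rplp1 or Rplp2, and symbols marked as pseudogenes were left out. This rule used names only and found 84 of the 26219 genes listed. Of these, 31 encode small subunit proteins, 43 large subunit proteins, 3 the proteins of the ribosomal stalk, and 7 are paralogs whose parent gene is also a member.

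A ribosome holds each core ribosomal protein in about equal amounts, and most of these genes are expressed in every cell, in step with growth. Their mRNAs begin with a pyrimidine tract through which translation is regulated, and their products are assembled with ribosomal RNA in the nucleolus. A few members have relatives with restricted expression. Mouse Rpl10l and Rpl39l are autosomal relatives of the X-linked genes Rpl10 and Rpl39, are known for expression in the male germ line, and are needed there for sperm production. Female PGCs are known to reactivate their silent X chromosome around the time they colonise the gonads.

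The data are 16 libraries of sorted PGCs, sequenced from the 3′ ends of their mRNAs. One set held 4 control and 4 conditional knockout (CKO) libraries at E11.5 (embryonic day). Both of these groups were C57BL/6, Prdm1(flox/flox) and Rosa26(neo-EYFP/+), and the CKO-labelled group also carried Dppa3-MCMP(TG/0), a Cre transgene driven in germ cells and activated by tamoxifen. Dams of both groups received 3 mg of 4-hydroxytamoxifen (4-OHT) per 25 g of body weight at E10.5, and cells were sorted by EYFP or by the surface antigen SSEA-1, without a record of which group received which sort. The other set held wild-type cells of a mixed ICR and C57BL/6 background carrying Dppa3(EGFP/+), with 2 libraries each for E10.5, E11.5, E13.5 males and E13.5 females. The labels give no sex before E13.5, and they do not say whether libraries came from separate litters, so p-values measure only the spread between these libraries, which may be technical.

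The floxed libraries held between 2797000 and 5032000 reads, and the wild-type ones between 1485000 and 4783000. Values are in RPM, the reads of a gene scaled to the total reads of its library. All 10 PGC markers checked were at 5 RPM or more in each of the 16 libraries. The sum over 8 markers of gonadal somatic and mesenchymal cells ranged from 9.47 to 238 RPM in the floxed libraries, highest in CKO-labelled 4, and from 4.66 to 59.2 RPM in the wild-type libraries, where both E10.5 libraries were highest. Prdm1, the targeted gene, had 66.2, 50.7, 63.0 and 73.0 RPM in the controls and 79.9, 84.1, 76.6 and 89.4 RPM in the CKO-labelled libraries. Each of the latter thus lay above every control, and the cause of this was not tested. A 3′ tag outside the deleted part would not register the deletion, and the label could not be checked in this way.

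The sequences before the annotated starts of the germ cell paralogs Rpl39l and Rpl10l and of their parents are shown because both paralogs rose from E10.5 to E11.5 while neither parent passed the test. RefSeq promoter windows of GRCm38.p6 were matched for 64 of the 84 members, and each printed window runs 5′ to 3′ from 250 bases before an annotated start to 20 bases after it. The windows of Rpl39l at chr16:10169978-10170247 and of Rpl10 at chrX:74270566-74270835 lie on the plus strand, and those of Rpl39 at chrX:37085203-37085472 and of Rpl10l at chr12:66284382-66284651 on the minus strand. Capitals mark matches on either strand to 4 motifs, CCGGAAG for ETS factors, ATGGCG for YY1, the E-box CACGTG and the TATA sequence TATAAA, none of which overlapped another here.
Rpl39l: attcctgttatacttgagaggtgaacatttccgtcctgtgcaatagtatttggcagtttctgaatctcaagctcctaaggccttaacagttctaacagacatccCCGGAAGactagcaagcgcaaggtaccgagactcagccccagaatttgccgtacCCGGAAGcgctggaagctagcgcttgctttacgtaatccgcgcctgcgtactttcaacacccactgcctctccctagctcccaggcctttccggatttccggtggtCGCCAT
Rpl39: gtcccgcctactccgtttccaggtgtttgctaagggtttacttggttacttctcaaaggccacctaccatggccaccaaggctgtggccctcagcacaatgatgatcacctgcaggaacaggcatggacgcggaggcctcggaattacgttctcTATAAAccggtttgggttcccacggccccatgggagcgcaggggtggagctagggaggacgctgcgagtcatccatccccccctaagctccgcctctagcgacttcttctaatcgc
Rpl10l: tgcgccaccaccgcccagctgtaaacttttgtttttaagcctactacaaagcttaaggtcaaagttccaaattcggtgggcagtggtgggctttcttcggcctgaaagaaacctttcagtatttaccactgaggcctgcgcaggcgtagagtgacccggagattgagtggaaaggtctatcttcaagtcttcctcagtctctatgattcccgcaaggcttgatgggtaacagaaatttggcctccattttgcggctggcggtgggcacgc
Rpl10: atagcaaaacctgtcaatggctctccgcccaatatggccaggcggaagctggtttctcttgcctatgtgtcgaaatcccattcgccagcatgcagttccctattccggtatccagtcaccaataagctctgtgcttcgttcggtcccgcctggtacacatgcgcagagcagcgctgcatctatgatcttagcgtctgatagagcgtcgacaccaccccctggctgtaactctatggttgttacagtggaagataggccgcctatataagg
Rpl39l held CCGGAAG at 2 places and the reverse complement of ATGGCG just after the start, Rpl39 held only TATAAA, and neither Rpl10l nor Rpl10 held any of the 4. Over all 76 windows of members, CCGGAAG occurred in 34.2%, against 8.08% of all 32851 promoter windows of that length. ATGGCG occurred in 17.1% against 6.60%, CACGTG in 10.5% against 6.57%, and TATAAA in 6.58% against 12.9%. The median window of a member had 19 CpG dinucleotides, and the median of all windows had 6. Such matches describe letters in these windows and say nothing about binding.

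The members were among the most abundant transcripts in these cells. Together they took 17.2% to 19.3% of the reads of a floxed library and 18.9% to 21.7% of a wild-type library. Of the 100 genes with the highest mean RPM, 61 were members in the floxed set and 65 in the wild-type set. In the floxed set 69 of the 84 members averaged at least 1000 RPM and in the wild-type set 68 did, with a median over members of 2198 and 2356 RPM. Rpl5, which carries 5S ribosomal RNA into the large subunit, was highest in the floxed set at 5563 RPM, followed by Rps4x at 4852 RPM and Rps3a at 4559 RPM. Rps2 at 5676 RPM, the stalk gene Rplp1 at 5664 RPM and Rps4x at 5107 RPM were highest in the wild-type set. RPM is not divided by transcript length, so these orders are orders of reads.

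At the other end, the lowest 3 members by mean RPM were paralogs in both sets. Rpl10l averaged 196 RPM in the floxed and 100.4 RPM in the wild-type libraries, and Rpl7l1, a distant relative of Rpl7, averaged 59.1 and 66.2 RPM. Rpl3l, known as the form used in heart and skeletal muscle, stayed between 0 and 2.24 RPM in all 16 libraries, at or near the level that 3 reads give, and was the 1 member that did not pass the filter for testing. The other 83 members were tested in both sets. The lowest member that is not a paralog averaged 224 RPM in the floxed and 240.3 RPM in the wild-type set.

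The share of reads taken by the members was 21.0% ± 0.18 (SD, n = 2) at E10.5 and 21.0% ± 0.99 at E11.5, then 19.0% ± 0.12 in males and 19.5% ± 0.75 in females at E13.5. All 4 libraries of E13.5 therefore lay below all 4 earlier ones, by a margin of 20.0% against 20.3% at the closest. The floxed controls had 18.2% ± 0.74 (SD, n = 4) and the CKO-labelled libraries 18.9% ± 0.47, and these ranges overlapped. In bulk samples, fewer cells of a type and less RNA per cell cannot be told apart.

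**Figure D1:**
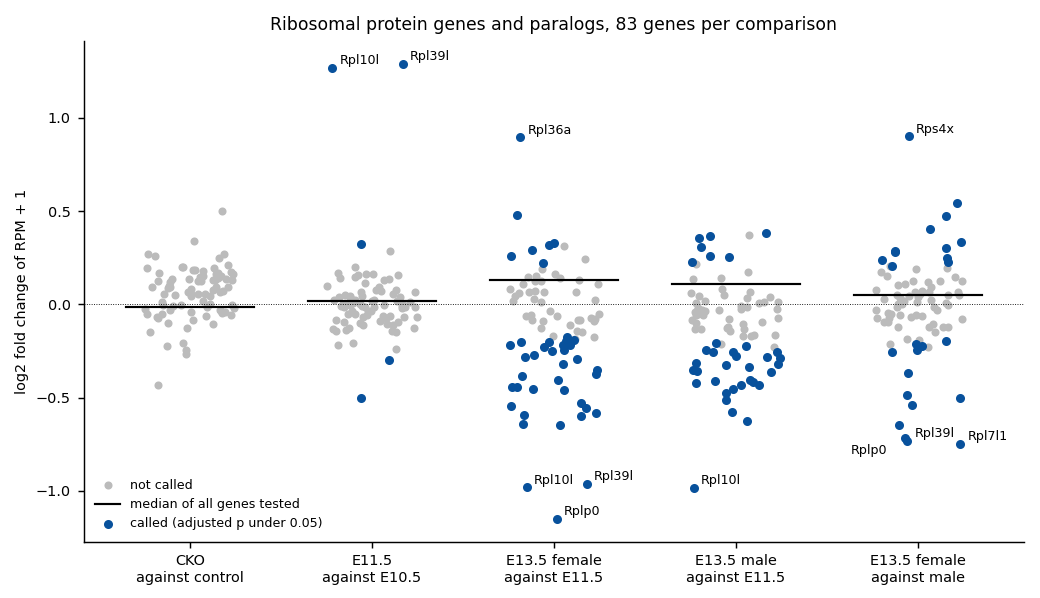
Log2 fold changes of RPM + 1 for the 83 members tested in each of the 5 comparisons, with called members in blue, the others in grey, and a black line at the median of all genes tested. No member was called between CKO-labelled and control libraries, Rpl39l and Rpl10l stood apart from E10.5 to E11.5, and at E13.5 most called members of either sex lay below 0 against E11.5, although 23 of the 34 in females lay above 0 when scaled to spike-in RNAs.

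The CKO-labelled group alone carried the Cre transgene, the sort used for each group is not recorded, and Prdm1 reads were not lower in it. Its comparison with the controls therefore does not isolate the loss of PRDM1. Between CKO-labelled and control libraries at E11.5, no member passed the test by limma with Benjamini-Hochberg adjustment over all genes tested (83 members, adjusted p under 0.05). The background was 2.43% of all 9384 genes tested, with 181 higher and 47 lower. At an unadjusted p under 0.05, 2 members were higher and 1 was lower, and limma voom also called 0. The median log2 fold change was 0.07 over the members and -0.01 over all genes. The member with the largest difference, 0.50 on the log2 scale, was Rps15, whose controls alone ran from 103 to 321 RPM.

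Groups that did not overlap were found for 2 members that were higher, against a background of 4.34%, and for 0 that were lower, against 3.86%. Rpl31, a protein near the exit of the polypeptide tunnel, had 1002, 1225, 1232 and 966 RPM in the controls and 1371, 1506, 1280 and 1430 RPM in the CKO-labelled libraries. Its log2 fold change was 0.34 ± 0.10 (SE), with an adjusted p of 0.109 by limma. Rpl11, which with Rpl5 binds 5S ribosomal RNA, had 2156, 1904, 2093 and 1864 RPM in the controls and 2247, 2218, 2168 and 2380 RPM in the CKO-labelled libraries, with an adjusted p of 0.419 by limma. Neither difference passed the test.

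The germ cell paralogs were read in all floxed libraries. Rpl39l had 364, 531, 326 and 481 RPM in the controls and 414, 417, 375 and 222 RPM in the CKO-labelled libraries. Rpl10l had 185, 327, 176 and 210.3 RPM in the controls and 199, 187, 188 and 95.8 RPM in the CKO-labelled libraries. For both genes the lowest of the 8 values belonged to CKO-labelled 4 and the highest to control 2, and the groups overlapped. The log2 fold change was -0.27 ± 0.20 (SE; adjusted p = 0.673) for Rpl39l and -0.43 ± 0.23 (adjusted p = 0.499) for Rpl10l by limma. CKO-labelled 4 also had the highest summed somatic marker level, 238 RPM against 9.47 to 95.2 RPM in the other 7 floxed libraries. With this sum as a covariate the log2 fold change was -0.22 for Rpl39l and -0.38 for Rpl10l, and without CKO-labelled 4 it was -0.05 and -0.19, none of which passed the test. Rpl22l1, the paralog of Rpl22, had 569, 453, 603 and 629 RPM in the controls against 439, 496, 441 and 519 RPM, a log2 fold change of -0.24 ± 0.11 (adjusted p = 0.388 by limma), with overlapping groups.

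From E10.5 to E11.5 the paralogs Rpl39l and Rpl10l had the largest changes among the members. By limma, 3 members rose and 2 fell at an adjusted p under 0.05, against backgrounds of 2.31% and 1.97% of 10749 genes. The 3 that rose, Rpl39l, Rpl10l and Rpl36al, were all paralogs, of 6 tested, and another paralog, Rpl22l1, was among the 2 that fell, beside Rpl14. By limma voom 9 members were called, 4 of them paralogs, against 550 of all 10749 genes. The median log2 fold change was -0.01 over the members and 0.02 over all genes. None of the 31 small subunit genes and none of the 3 stalk genes passed the test by limma, with 0 higher and 1 lower at an unadjusted p under 0.05.

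Rpl39l, whose parent protein lines the tunnel through which the nascent chain leaves the ribosome, had 160 and 152 RPM at E10.5 and 352 and 417 RPM at E11.5. Both later libraries thus exceeded both earlier ones by more than the spread, with a log2 fold change of 1.29 ± 0.11 (SE; adjusted p = 1.08e-08 by limma). Rpl39 itself had 218 and 260 RPM at E10.5 and 275 and 181 RPM at E11.5, with overlapping groups (log2 fold change -0.09 ± 0.16; adjusted p = 0.815 by limma). The ratio of Rpl39l to Rpl39 reads went from 0.734 and 0.586 to 1.28 and 2.30. This ratio compares libraries only, since reads of different genes are not divided by length.

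Rpl10l had 65.0 and 71.4 RPM at E10.5 and 165 and 166 RPM at E11.5. The log2 fold change was 1.27 ± 0.15 (SE; adjusted p = 1.79e-06 by limma). Its parent Rpl10, which completes the large subunit late in its maturation, had 4623 and 4734 RPM and then 3784 and 4787 RPM, with overlapping groups (-0.14 ± 0.09; adjusted p = 0.446 by limma). The ratio of Rpl10l to Rpl10 reads rose from 0.0141 and 0.0151 to 0.0436 and 0.0347. Both paralogs were also higher at E11.5 when libraries were scaled to spike-in RNAs, at 0.86 for Rpl39l and 0.84 for Rpl10l on the log2 scale, a scaling that moved the median of all genes from 0.02 to -0.39.

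The other paralogs moved less. Rpl36al, the autosomal relative of Rpl36a, had 456 and 480 RPM at E10.5 and 601 and 570 RPM at E11.5 (log2 fold change 0.32 ± 0.09; adjusted p = 0.0309 by limma), but scaled to spike-in RNAs its change was -0.11. Rpl22l1 had 985 and 997 RPM and then 696 and 703 RPM (-0.50 ± 0.08; adjusted p = 0.000318 by limma), while Rpl22, which binds RNA at the surface of the large subunit, had 1829 and 1970 RPM and then 1853 and 1941 RPM. Rpl14, a large subunit protein, had 2336 and 2147 RPM and then 1754 and 1890 RPM (-0.30 ± 0.08; adjusted p = 0.0270 by limma). Leaving out either E10.5 library lowered the count of called members from 5 to 3, with Rpl14 and Rpl36al lost. The count of all genes called fell from 460 to 105 without E10.5 1 and to 167 without E10.5 2. The somatic marker sum was 52.8 and 59.2 RPM at E10.5 and 6.06 and 6.55 RPM at E11.5. The erythroid marker sum was 199 and 193 RPM at E10.5 and 11.4 and 5.69 RPM at E11.5. The part of such cells in these differences was not tested.

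**Figure D2:**
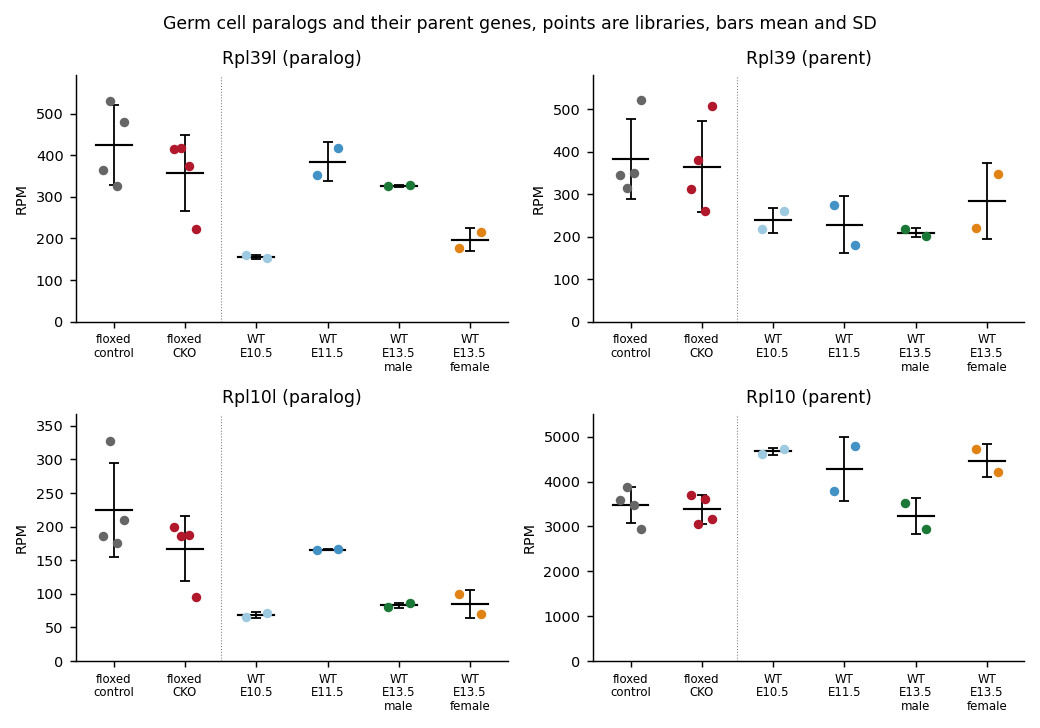
RPM in each of the 16 libraries of the paralogs Rpl39l and Rpl10l and of their parent genes Rpl39 and Rpl10, with the mean and SD of each group, and a dotted line between the separately normalised floxed and wild-type tables. Both paralogs were higher in the 2 wild-type E11.5 libraries than in the 2 of E10.5, while their parents overlapped between these stages.

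At E13.5 PGCs of both sexes have entered the gonad, and those of females are known to approach meiosis while those of males approach mitotic arrest. Each sex was compared with the same 2 libraries of E11.5, so the comparisons share libraries and their values are set side by side without a test of overlap. In females, 7 members rose and 34 fell by limma at an adjusted p under 0.05, against backgrounds of 31.2% and 20.0% of all genes. In males, 7 rose and 28 fell, against 22.3% and 15.9%. The median log2 fold change was -0.09 in females and -0.10 in males over the members, and 0.13 and 0.11 over all genes.

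These splits depend on the scaling. With median-ratio scaling, 4 members rose and 45 fell in females, against 2819 and 2616 of all 10749 genes. In males 3 rose and 39 fell, against 1996 and 2002. The median of all genes moved to 0.02 and 0.03 under this scaling. With spike-in scaling, chosen after seeing the data, 28 rose and 1, Rplp0, fell in females, against 4729 and 574 of all 10749 genes. In males 0 rose and 1, Rpl10l, fell, against 1524 and 830. The other falls of members from E11.5 thus did not pass the test under spike-in scaling. That scaling moved the median of all genes to 0.61 in females and 0.19 in males, and the median of the members to 0.41 and -0.01. Of the 34 members that fell in females, 23 had a positive log2 fold change under spike-in scaling and 11 a negative one. The spike-in sums differed between the 2 female libraries, at 15507 and 11006 RPM. They were 17790 and 19252 RPM at E11.5 and 16845 and 17958 RPM in males. In males all 28 that fell remained negative. Leaving out female 2 lowered the count of members called in females from 41 to 26, and that of all genes from 5502 to 4033. Leaving out male 2 lowered the count of members in males from 35 to 19, and that of all genes from 4105 to 2853. Without a variance trend in the model 14 and 5 members were called, against 4595 and 3097 of all 10749 genes.

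The stalk is the flexible arm of the large subunit that recruits the GTPases of translation, with Rplp0 at its base and pairs of Rplp1 and Rplp2 bound to it. All 3 genes fell in both sexes by limma, but in females Rplp1 and Rplp2 changed sign under spike-in scaling, to 0.26 and 0.06 on the log2 scale. Rplp0 had 4118 and 4571 RPM at E11.5, 3111 and 3312 RPM in E13.5 males, and 2090 and 1827 RPM in E13.5 females. The 3 groups did not overlap, with females lowest. Its log2 fold change was -1.15 ± 0.08 (SE; adjusted p = 3.05e-12 by limma) in females and -0.43 ± 0.08 (adjusted p = 7.82e-05) in males. The female value was -0.65 with spike-in scaling and was still called there.

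Rplp1 had 5971 and 6615 RPM at E11.5, 5146 and 4951 RPM in males and 5736 and 4887 RPM in females. Rplp2 had 2566 and 2493 RPM at E11.5, 2201 and 2071 RPM in males and 1933 and 1796 RPM in females. The log2 fold changes in females were -0.25 (adjusted p = 0.0114 by limma) for Rplp1 and -0.44 (adjusted p = 1.99e-05) for Rplp2. Those in males were -0.32 (adjusted p = 0.00250 by limma) and -0.24 (adjusted p = 0.0108). Of the 3 stalk genes, Rplp0 had the largest fall in both sexes.

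**Figure D3:**
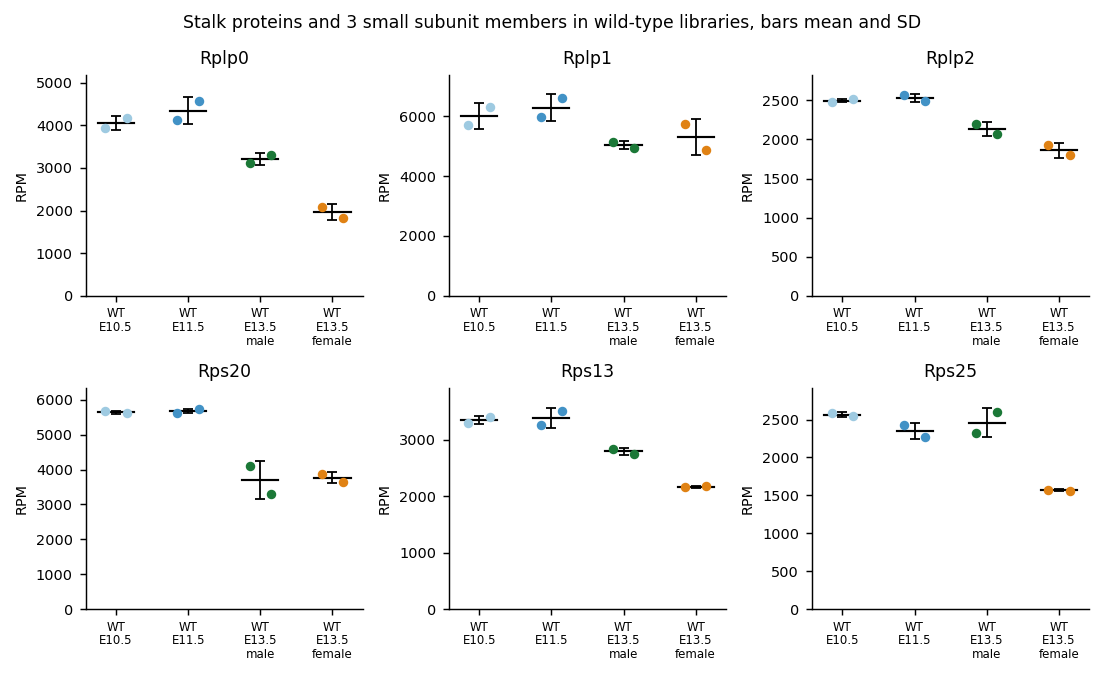
RPM in each wild-type library of the 3 stalk genes Rplp0, Rplp1 and Rplp2 and of the small subunit genes Rps20, Rps13 and Rps25, with the mean and SD of each group of 2. Rplp0 was lowest in the 2 female libraries at 2090 and 1827 RPM, and Rps25 was lower in females than in the other 3 groups. The falls of Rplp1 and Rplp2 in females changed sign under spike-in scaling.

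Among the 31 small subunit genes, 2 rose and 15 fell in females, against 31.2% and 20.0% of all genes. In males 1 rose and 13 fell, against 22.3% and 15.9%. Rps20, a protein of the small subunit head, had 5629 and 5723 RPM at E11.5, 4087 and 3308 RPM in males and 3872 and 3653 RPM in females. Its log2 fold change was -0.59 ± 0.08 (SE; adjusted p = 8.43e-07 by limma) in females and -0.63 ± 0.08 (adjusted p = 5.22e-07) in males, and it lay between -0.78 and -0.09 under the settings tried. Rps12 had 3670 and 4248 RPM at E11.5, 3117 and 2738 RPM in males and 2693 and 2360 RPM in females, with falls of 0.43 and 0.65 on the log2 scale. For both genes no E13.5 library reached the lower E11.5 library.

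Other small subunit genes moved in one or both sexes. Rps13 had 3248 and 3502 RPM at E11.5, 2833 and 2745 RPM in males and 2153 and 2172 RPM in females, a fall of 0.64 on the log2 scale in females and of 0.27 in males. Rps25, a protein of the head that some viral internal ribosome entry sites need, had 2425 and 2272 RPM at E11.5, 2330 and 2594 RPM in males and 1577 and 1560 RPM in females, a fall of 0.58 in females (adjusted p = 4.80e-07 by limma) and a change of 0.07 in males that did not pass the test. With spike-in scaling the female falls shrank to 0.14 on the log2 scale for Rps13 and to 0.08 for Rps25, and neither passed the test. Rps16, whose tail contacts the transfer RNA on the small subunit, had 3749 and 4352 RPM at E11.5, 2773 and 2645 RPM in males and 3286 and 2912 RPM in females, and fell in both, by 0.58 (adjusted p = 1.55e-06 by limma) and 0.38 (adjusted p = 0.000226), though in females it was 0.12 higher with spike-in scaling. Rps6, the classic substrate of S6 kinase, rose in females, from 2218 and 2429 RPM to 2917 and 2762 RPM (0.29 ± 0.08; adjusted p = 0.00247 by limma), and had 2160 and 2352 RPM in males. Rps14, on the other hand, was called as higher in males (0.25 ± 0.10; adjusted p = 0.0377 by limma), but its libraries of 2417 and 3314 RPM overlapped those of E11.5 at 2302 and 2452 RPM.

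Among the 43 large subunit genes, 4 rose and 13 fell in females, against 31.2% and 20.0% of all genes. In males 4 rose and 11 fell, against 22.3% and 15.9%. Rpl28 had 1298 and 1497 RPM at E11.5, 997 and 955 RPM in males and 1023 and 876 RPM in females, and fell in both, by 0.51 and 0.56 on the log2 scale. Rpl13a, which in human cells is also known for a role outside the ribosome in translational silencing of inflammatory mRNAs, had 3831 and 3853 RPM at E11.5, 2870 and 2657 RPM in males (-0.48 ± 0.07; adjusted p = 8.53e-06 by limma) and 3533 and 3274 RPM in females (-0.18 ± 0.07; adjusted p = 0.0476). Rpl12, part of the base of the stalk, had 3898 and 4342 RPM at E11.5, 3230 and 2945 RPM in males (-0.42 ± 0.08; adjusted p = 7.81e-05 by limma) and 3426 and 3301 RPM in females (-0.29 ± 0.08; adjusted p = 0.00221). The female falls of Rpl13a and Rpl12 changed sign with spike-in scaling. Against these, Rpl17, a protein at the tunnel exit, had 1708 and 1879 RPM at E11.5 and rose to 2170 and 2125 RPM in males and 2167 and 2339 RPM in females. Rpl14 also rose in both sexes, by 0.22 in females and 0.23 in males on the log2 scale, against the same 2 libraries of E11.5 in which it had been lower than at E10.5. These rises were lost in 6 and 7 of 19 other settings, median-ratio scaling and leaving out E11.5 1 among them.

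Of the members outside the X chromosome, 5 rose and 34 fell in females, against 30.6% and 20.3% of autosomal genes. In males 6 rose and 26 fell, against 22.5% and 15.5%. Over the whole list, 23 members were called as lower in both sexes and 4 as higher in both, Rpl14, Rpl17, Rpl22l1 and Rpl36a. Rps4x was called as higher in females and lower in males. The counts for both sexes share the E11.5 libraries, whose sex is not labelled. No count of all genes called in both sexes stands beside them, so they are given as a description.

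At E13.5 the 2 germ cell paralogs fell by similar amounts in females, while in males Rpl39l changed less than Rpl10l. The difference between the 2 genes was not tested. Rpl10l, at 165 and 166 RPM at E11.5, had 80.5 and 85.9 RPM in males and 99.7 and 69.6 RPM in females. It fell by 0.98 ± 0.15 (SE) on the log2 scale in both (adjusted p = 6.42e-06 in males and 4.41e-06 in females by limma), and the sexes overlapped. Rpl39l, at 352 and 417 RPM at E11.5, had 325 and 328 RPM in males and 178 and 216 RPM in females. Its change was -0.96 ± 0.11 (adjusted p = 5.65e-08 by limma) in females and -0.23 ± 0.11 (adjusted p = 0.104) in males, where it did not pass the test. By limma voom and with median-ratio scaling it was called as lower in males. With spike-in scaling the female falls were 0.48 for Rpl10l (adjusted p = 0.124 by limma) and 0.46 for Rpl39l (adjusted p = 0.107), and neither passed the test. The ratio of Rpl39l to Rpl39 reads was 1.497 and 1.63 in males and 0.805 and 0.622 in females.

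Rpl22l1, which had fallen from E10.5 to E11.5, had 899 and 925 RPM in males and 836 and 910.0 RPM in females. It rose by 0.38 ± 0.08 (SE; adjusted p = 0.000480 by limma) and 0.32 ± 0.08 (adjusted p = 0.00191) over the 696 and 703 RPM of E11.5. Rps27l, a paralog of Rps27 known as a target of p53, had 539 and 590 RPM at E11.5 and 641 and 827 RPM in males, a rise of 0.37 ± 0.13 (adjusted p = 0.0273 by limma) that was lost in 10 of 19 other settings. Its 542 and 824 RPM in females overlapped E11.5. Rps27 had 663 and 618 RPM at E11.5 and 367 and 485 RPM in females, a fall of 0.60 ± 0.12 (adjusted p = 0.000131 by limma), and 511 and 700 RPM in males.

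Between females and males at E13.5, 12 members were higher in females and 13 lower by limma at an adjusted p under 0.05, against backgrounds of 21.2% and 16.4% of all genes. With median-ratio scaling the counts were 8 and 17, against 2158 and 1924 of all 10749 genes. With spike-in scaling they were 18 and 0, against 3260 and 473, as the median of all genes moved from 0.05 to 0.45. Leaving out male 2 lowered the count of members called from 25 to 15, and leaving out female 1 lowered it to 16. The count of all genes called fell from 4038 to 2812 and 2708 in these fits. Both female libraries and both male libraries had gonadal somatic and mesenchymal marker sums of 4.66 to 15.4 RPM, but not all panels were alike. Erythroid sums were 22.6 and 30.7 RPM in females and 2.34 and 3.52 RPM in males. Endothelial sums were 115 and 121 RPM in females and 59.4 and 58.5 RPM in males. Sertoli sums were 0 and 0 RPM in females and 7.35 and 2.47 RPM in males. The part of such cells in the differences was not tested.

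The 4 X-linked members were all higher in females, under each of the 4 scalings. Rps4x, a protein of the small subunit body, had 4854 and 5003 RPM at E11.5, 3719 and 3643 RPM in males and 6894 and 6846 RPM in females. It was 1.87-fold higher in females than in males, with a log2 fold change of 0.90 ± 0.07 (SE; adjusted p = 7.99e-11 by limma). Against E11.5 it rose by 0.48 ± 0.07 in females (adjusted p = 3.67e-06 by limma) and changed by -0.42 ± 0.07 in males (adjusted p = 3.56e-05). Its female, E11.5 and male libraries formed 3 groups that did not overlap. The 5223 and 4674 RPM at E10.5 overlapped E11.5. The sex of the E11.5 libraries is not labelled, and its part in changes of X-linked members from E11.5 was not tested.

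Rpl36a, a protein of the exit site of the large subunit, had 1478 and 1171 RPM at E11.5, 1643 and 1721 RPM in males and 2391 and 2507 RPM in females. It was 1.46-fold higher in females than in males (log2 fold change 0.54 ± 0.09; adjusted p = 2.06e-05 by limma). Against E11.5 it was higher by 0.90 on the log2 scale in females (adjusted p = 3.69e-09 by limma) and by 0.35 in males (adjusted p = 0.00236). The male rise was lost in 5 of 19 other settings, spike-in scaling and leaving out male 2 among them. Its autosomal paralog Rpl36al had 635 and 685 RPM in males and 603 and 624 RPM in females, so the ratio of Rpl36al to Rpl36a reads was 0.386 and 0.398 in males and 0.252 and 0.249 in females. The difference of Rpl36al between the sexes did not pass the test (-0.10 ± 0.09; adjusted p = 0.367 by limma).

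Rpl10 had 3515 and 2940 RPM in males and 4730 and 4207 RPM in females, a 1.38-fold difference (log2 fold change 0.47 ± 0.09; adjusted p = 0.000182 by limma). Rpl39 had 217 and 202 RPM in males and 222 and 348 RPM in females, a mean difference of 1.36-fold (0.41 ± 0.16; adjusted p = 0.0449 by limma) that was lost in 9 of 19 other settings. Nearly all of the Rpl39 difference lay in female 2. Among all 408 X-linked genes tested, 224 were higher and 19 lower in females, with a median log2 fold change of 0.69. Among 9988 autosomal genes 2005 were higher and 1690 lower, with a median of 0.03. The X-linked members thus shared the direction of most called X-linked genes, and the median over the 4 was 0.51. The same 4 genes had a median of -0.05 between CKO-labelled and control libraries, where none was called.

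**Figure D4:**
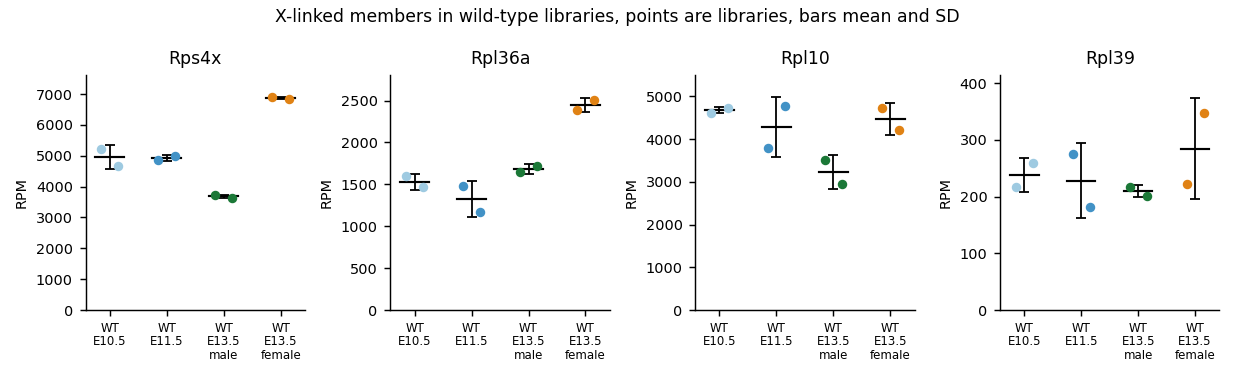
RPM in each wild-type library of the 4 X-linked members Rps4x, Rpl36a, Rpl10 and Rpl39, with the mean and SD of each group of 2. Rps4x had 6894 and 6846 RPM in the female libraries against 3719 and 3643 RPM in the male ones, while the 222 RPM of Rpl39 in female 1 lay close to the 217 RPM of male 1.

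Outside the X chromosome, 8 members were higher and 13 lower in females, against 20.1% and 16.9% of autosomal genes. Of the higher ones Rps6 differed by 0.33 ± 0.08 (SE; adjusted p = 0.00103 by limma), and Rpl13a, Rps15, Rpl11 and Rps15a by 0.24 to 0.30. The lower ones were led by paralogs and by members described above. Rpl7l1 had 79.5 and 88.7 RPM in males and 46.8 and 52.6 RPM in females (-0.75 ± 0.15; adjusted p = 0.000333 by limma), while Rpl7 had 2599 and 2450 RPM and 2434 and 2387 RPM. Rpl39l was lower in females by 0.73 ± 0.11 (log2 fold change -0.73; adjusted p = 7.20e-06 by limma), and Rpl10l did not pass the test (0.00 ± 0.15; adjusted p = 0.990). Rplp0 differed by -0.72 ± 0.08 (adjusted p = 4.00e-08 by limma) and Rps25 by -0.65 ± 0.08 (adjusted p = 1.20e-07). Rpl38, known in mouse for selective translation of Hox mRNAs, had 794 and 930 RPM in males and 607 and 573 RPM in females (-0.54 ± 0.09; adjusted p = 3.95e-05 by limma). With spike-in scaling, 6 of the 13 lower members changed sign, while Rpl7l1, Rpl39l, Rplp0, Rps25 and Rpl38 stayed negative but were not called.

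Over the 5 comparisons, 55 of the 83 members tested (66.3%) were called at least once and 28 never. This is near the 69.0% of all 9303 genes tested in both sets that were called at least once. Of the paralogs, Rpl39l, Rpl10l, Rpl22l1, Rpl36al, Rps27l and Rpl7l1 were each called at least once, and Rpl22, Rpl7 and Rpl3 among the parents never were. The calls kept under all 19 alternatives were 7 of 61 single results checked. They were Rpl39l from E10.5 to E11.5, Rpl36a, Rps4x and Rplp0 in females against E11.5, Rpl10l in males against E11.5, and Rps4x and Rpl36a between the sexes.

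Other genes of translation were followed beside the members. Their counts use RPM as deposited and were not repeated under other scalings. Spike-in scaling moved the median of all genes to 0.61 in females and 0.19 in males against E11.5. Between the sexes it moved that median to 0.45. Of 22 genes of ribosomal fusion proteins and other mRNAs with a 5′ pyrimidine tract, 0 were called between CKO-labelled and control libraries. The background was 2.43% of all genes, and 0 of the 22 were called at an unadjusted p under 0.05. From E10.5 to E11.5, 1 rose and 3 fell, against 2.31% and 1.97% of all genes. Among those that fell were the elongation factor gene Eef1a1, from 12009 ± 223 to 10017 ± 523 RPM (SD, n = 2), and Npm1, a nucleolar chaperone of ribosome assembly, from 5908 ± 16.7 to 4795 ± 261 RPM. At E13.5, 2 rose and 11 fell in females, against 31.2% and 20.0% of all genes. In males 1 rose and 6 fell, against 22.3% and 15.9%. Eif3l, a subunit of initiation factor eIF3, fell in both, from 616 ± 24.7 RPM to 283 ± 1.77 RPM in females and 322 ± 12.2 RPM in males. Gas5, a noncoding host of small nucleolar RNAs with a pyrimidine tract, had 100.3 ± 12.9 RPM in females and 302 ± 43.1 RPM in males (-1.58 ± 0.12; adjusted p = 3.13e-11 by limma).

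Of 39 ribosome biogenesis genes, 0 were called between CKO-labelled and control libraries, against 2.43% of all genes. At an unadjusted p under 0.05, 0 were higher and 1 was lower. In females at E13.5, 4 rose and 20 fell against E11.5, where 31.2% and 20.0% of all genes did. The median log2 fold change of the 39 was -0.32. In males 6 rose and 5 fell, against 22.3% and 15.9% of all genes, with a median of 0.10. Between the sexes 3 were higher and 20 lower in females, against 21.2% and 16.4% of all genes. As for the other lists, these counts were not repeated with spike-in scaling. Bysl, needed for small subunit assembly, fell in both sexes, from 577 ± 8.66 RPM (SD, n = 2) to 193 ± 5.90 RPM in females and 184 ± 2.79 RPM in males. Bop1, which processes the RNA of the large subunit with Pes1, had 50.7 ± 6.61 RPM in females and 135 ± 26.7 RPM in males (-1.39 ± 0.14; adjusted p = 9.08e-09 by limma).

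Of the genes for proteins of the mitochondrial ribosome, which is built from other genes, 6 of 75 rose and 0 fell from E10.5 to E11.5. The background was 2.31% and 1.97% of all genes. Mrps24 led the rises, from 103 ± 19.3 to 213 ± 17.2 RPM (SD, n = 2). At E13.5, 10 rose and 26 fell in females, against 31.2% and 20.0% of all genes. In males 8 rose and 10 fell, against 22.3% and 15.9%. Between CKO-labelled and control libraries 1 of 74 was called, against 2.43% of all genes. This was Mrps23, with 81.1 ± 6.52 against 58.1 ± 4.17 RPM (SD, n = 4; adjusted p = 0.0373 by limma). Another list held genes that regulate translation of pyrimidine tract mRNAs, and the transcription factor genes Myc, Mycn and Max. Of its 13 genes tested, 4 rose and 4 fell in females, Max among the latter, against 31.2% and 20.0% of all genes. In males 2 rose and 2 fell, against 22.3% and 15.9%. Eif4ebp1, a repressor of cap-dependent initiation, fell in both, from 329 ± 46.3 RPM to 161 ± 0.451 RPM in females and 219 ± 25.7 RPM in males.

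Reads of ribosomal protein genes can be shared with other loci, since their processed copies are many. In the last 300 bases of the protein-coding transcripts of each member, the median share of 50-base stretches also present in a transcript of another gene was 50.0%, and 11 of the 84 members shared none. Rpl39l and Rpl10l shared none, either with their parents or with another gene, and so did Rps20. For Rpl39 the share was 21.1%, for Rps25 32.2%, for Rplp0 39.2%, for Rps4x 62.2%, for Rpl10 90.4% and for Rpl36a 100%. The length of the reads and the handling of reads with several positions are not given in the sources used here, and the values of members with a high share are uncertain to that extent.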

How the data were processed

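The submitters' processing notes name cutadapt 1.3, TopHat 1.4.1, Cufflinks 2.2.0 and the build mm10. The authors deposited RPM, reads scaled to a common library total and not divided by transcript length, in separate floxed and wild-type tables, which were not compared with each other. Steps between low values gave the depth, with 99.4% to 99.5% of values whole within 0.05 reads. A floor of 3 reads was 0.596 to 2.02 RPM, covering counting error only. Tests used limma 3.58.1 (R 4.3.3, empirical Bayes with trend) on log2(RPM + 1), for every gene that reached 5 RPM in 4 of the floxed or in 2 of the wild-type libraries, with Benjamini-Hochberg adjustment and calls at 0.05, all 8 wild-type libraries sharing 1 fit. Fold changes on this scale understate those of low genes.

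The members and lists were chosen with earlier results of these data known. Named members were the paralogs with parents, the X-linked members, the 3 highest and 3 lowest, and up to 10 called per direction; Rpl31, Rpl11 and the pathway genes shown beside them follow counts or lists. A named member, 1 in all, is not reported here. In data simulated for the floxed comparison, calls were made for 81.6% of 1.5-fold changes and 96.0% of 2-fold ones. For E11.5 against E10.5 these shares were 34.0% and 83.0%. Chromosomes and windows came from RefSeq GRCm38.p6, transcripts from GENCODE M21. Alternatives covered pseudocount, filter, scaling, variance model, replicate block and each library left out; voom on recovered reads, spike-in scaling, a somatic covariate and a fit without control 1 and CKO-labelled 4 were added after the data were seen.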

Additional observations from a re-analysis of the deposited data

Results flagged for a closer look

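In the floxed groups of 4, a library lay far from the other 3 for 5 of 84 groups of named members checked, about what chance gives, since it flags about 1 group in 20. Rpl10l had 95.8 RPM in CKO-labelled 4 against 187 to 199 RPM in the other 3. Rpl28 had 910.5 RPM in CKO-labelled 2 against 790.0 to 793 RPM. Rpl36a had 1300 RPM in CKO-labelled 1 against 1447 to 1475 RPM. Rpl39 had 521 RPM in control 4 against 315 to 349 RPM. Rplp1 had 3807 RPM in CKO-labelled 3 against 4157 to 4212 RPM.

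The change from E11.5 to E13.5 differed between females and males by limma for the 19 named members listed here. This difference equals the contrast of the sexes at E13.5, because both share the E11.5 libraries. Members were named partly for being called in that contrast, up to a cap per direction, so the 19 follows from the naming. Of the 83 members tested, 25 were called in that contrast, against 4038 of all 10749 genes. As female minus male on the log2 scale the difference was positive for Rps4x (0.90), Rpl36a (0.54), Rpl10 (0.47), Rpl39 (0.41), Rps6 (0.33), Rpl13a (0.30), Rps15 (0.28), Rpl11 (0.25) and Rps15a (0.24). It was negative for Rpl7l1 (-0.75), Rpl39l (-0.73), Rplp0 (-0.72), Rps25 (-0.65), Rpl38 (-0.54), Rps27 (-0.50), Rps18 (-0.49), Rps13 (-0.37), Rps29 (-0.26) and Rpl29 (-0.24). For Rps4x the change itself had opposite signs in the sexes, against E11.5 libraries whose sex is not labelled.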

How the results depend on the processing

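The total counts of called members below moved by over 1.5 times under the setting named. Without a trend in the variance model the counts were 1 (E11.5 against E10.5, from 5), 14 (females against E11.5, from 41), 5 (males against E11.5, from 35) and 7 (females against males, from 25), and without a filter 3, 27, 21 and 13. All genes called without a trend were 27, 4595, 3097 and 3033 of 10749, from 460, 5502, 4105 and 4038. Without a filter they were 80, 5170, 3452 and 3579 of 18473. For E11.5 against E10.5, array weights gave 3 and limma voom 9, against 279 and 550 of all 10749 genes. Spike-in scaling gave 1 for males against E11.5, turned 7 higher and 34 lower into 28 and 1 for females against E11.5, and 12 and 13 into 18 and 0 for females against males. Over all genes the same scaling gave 4729 higher and 574 lower for females against E11.5, 1524 and 830 for males against E11.5, and 3260 and 473 for females against males. It changed the sign of 23 called members for females against E11.5, of 6 for females against males and of 1 for E11.5 against E10.5, among them Rpl36al (E11.5 against E10.5, -0.11), Rpl7l1 (females against E11.5, 0.12) and, for females against males, Rpl29 (0.17), Rps13 (0.046) and Rps29 (0.15). Its construction shifts all genes of a library together, and the cause of that shift was not tested. The spike-in sums of the 2 E13.5 female libraries, 15507 and 11006 RPM, differed from each other. With the replicate block 1 member, Rps15, was called between CKO-labelled and control libraries (adjusted p = 0.0268 by limma), from 0, and the block moved no other count by over 1.5 times. Of all 9384 genes, 314 were called with the block in that comparison, from 228. Same-numbered floxed libraries correlated in their deviations at 0.0198 to 0.252, and 3 of 4 controls were closest to their own number, a hint of pairing from the data. As not every pair exceeded 0.1 and the labels name nothing shared, the numbers were not taken to pair the samples. Leaving out 1 library gave 0 to 0 called for CKO against control, 3 to 5, 26 to 40, 19 to 36 and 15 to 31 for the other comparisons in the order above. The low counts came without E10.5 1 or 2 (3 each), female 2 (26), male 2 (19) and, between the sexes, male 2 (15) or female 1 (16). Fewer of all genes were called there too, at 105 and 167, 4033, 2853, and 2812 and 2708 in that order. Of 61 called single results, 7 were called in all settings, and 35 of 46 uncalled ones stayed uncalled. The planned count test was not run, since not all values were whole reads. With 2 libraries a group, small changes were rarely called in simulated data.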
